A study of Mus musculus with 9 samples.

Results

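Hepatic glycolysis was followed here through 9 genes that run from the gate on glucose phosphorylation to the exit of pyruvate, Gckr, Gpi, Pfkl, Pfkfb1, Pgk1, Eno1, Pklr, Ldha and Pdha1. They were chosen by gene symbol, and all 9 of 9 were found once each among the 19686 genes of the count table and passed the filter on low counts in every comparison. Liver mRNA of 9 male Wistar rats was sequenced, 3 rats in each of 3 groups. The control group drank purified water and received saline by gavage. The model group drank 15% fructose and received saline by gavage, a diet used to bring on features of metabolic syndrome. The DSS group drank 15% fructose and received, by gavage, 1.8 g/kg of an extract of Danggui-Shaoyao-San (DSS), a formula of Chinese medicinal herbs. Treatments lasted 8 weeks, all rats had fasted for 12 h when the liver was taken, and their age is not given in the sources used here. The labels call the treated group DSS without naming the extract, and according to the methods of the study, livers of the 50% methanol extract alone were sequenced. Although the labels name the mouse as organism, the strain they give is the Wistar rat and the gene identifiers are rat ones, so the livers were treated as rat.

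In the liver, glucose is trapped by phosphorylation, a step that the protein encoded by Gckr restrains when glucose is scarce and frees when sugar phosphates from fructose appear. The trapped sugar is rearranged, given another phosphate by phosphofructokinase and split, and its carbon then passes through the lower steps to phosphoenolpyruvate, from which pyruvate kinase makes pyruvate. Fructose enters below phosphofructokinase, through ketohexokinase, and so reaches pyruvate kinase without passing that control point. Liver pyruvate kinase is a classic gene of the fed state, raised by carbohydrate through the factor ChREBP and lowered in fasting, when phosphoenolpyruvate is drawn towards new glucose.

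Levels are given in CPM, edgeR's depth-scaled counts after TMM normalization, and group levels as the mean with its SD (n = 3 rats). They are compared between groups and not between genes, since gene lengths in the rat were not used here. Total counts per library ranged from 14345819 to 26837227, and counting error was small beside the spread between rats, with a chi-square per gene of 18.2 to 65.9 between rats of 1 group. On the second principal component, with 26.1% of the variance, model replicate 1 stood apart at -49.8, where the next rat, model replicate 3, lay at -10.4. All 9 hepatocyte markers were detected in every library. Of these, edgeR called 0 in any comparison (3, 1 and 5 at an unadjusted p under 0.05 between model and control, DSS and model, and DSS and control livers), and DESeq2 called 1 in each. The summed level of the 9 leukocyte and Kupffer cell markers ranged from 298 to 675 CPM in control livers, from 214 to 488 in model livers and from 296 to 399 in DSS livers, that of 6 endothelial markers from 150 to 245, 103 to 280 and 153 to 210, and that of 8 stellate cell markers from 261 to 296, 192 to 298 and 249 to 358. Red cells also express Pklr, and the 6 red cell markers summed to between 441 and 1188 CPM in control livers, 394 and 606 in model livers and 360 and 731 in DSS livers. The 6 bile duct markers summed to at most 34.0 CPM and the 2 muscle markers to at most 1.24 CPM in any liver. No marker of these other cell types, hepatocytes aside, was called by edgeR or DESeq2 in any comparison, and 3, 2 and 4 of them had an unadjusted edgeR p under 0.05 between model and control, DSS and model, and DSS and control livers. The part of these cells in the results on glycolysis was not tested. Within hepatocytes, the summed level of 8 periportal genes ranged from 7144 to 7757 CPM in control livers, from 4571 to 6458 in model livers and from 5763 to 10006 in DSS livers. That of 8 pericentral genes ranged from 2905 to 3470, from 2135 to 2380 and from 3064 to 4221. Cyp2e1 weighs most in the pericentral sum and Cps1 in the periportal sum, where Pck1 comes next in DSS livers. Pck1 stood at 811 ± 163 CPM in control and 2790 ± 1323 in DSS livers. Of the 8 periportal genes, 3 fitted changes between these groups were above 0 and 5 below. The sums therefore do not describe the genes of each list as a set. Of the periportal and pericentral genes edgeR called 1, the periportal Aldh1b1, in the comparison of DSS with control livers (log2FC -1.65, edgeR FDR 0.00155), a gene named here after its value was seen. Between model and control livers, 6 of the 8 periportal genes had an unadjusted edgeR p under 0.05, the rats of the groups did not overlap in 6, and DESeq2 called 6, with a median log2FC of -0.71. DESeq2 called 0 and 3 periportal genes between DSS and model and between DSS and control livers, where 2 and 5 had an unadjusted edgeR p under 0.05. For the pericentral genes DESeq2 called 2, 1 and 1 in the 3 comparisons, and 5, 2 and 2 had an unadjusted edgeR p under 0.05. Between model and control livers, 13.2% of all genes had such a p. The part of this zonation in the results on glycolysis was not tested.

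Group differences are given as log2 fold changes (log2FC) with their standard error (SE), from edgeR fits of the 6 libraries compared. Called genes had a log2FC of 0.5 or more in size together with a Benjamini-Hochberg FDR, taken over every gene tested, no higher than 0.01. The comparisons share libraries, so their values are given side by side and are not independent. Compared with the model group, the DSS group had lower levels of Pklr, the only one of the 9 genes that edgeR called in this comparison, where 0.136% of 12502 genes were called. Gpi and Eno1 were lower at an FDR of at most 0.05, as were 0.456% of all genes in either direction, and DESeq2 called these 3 at its own FDR of at most 0.01, with 1.18% of all genes. Compared with the control group, 5 of the 9 genes fell in the DSS group, Gpi, Pfkfb1, Pgk1, Eno1 and Pklr, and Gckr rose. In that comparison 1.48% of 12633 genes were called, 0.823% lower and 0.657% higher. DESeq2 called the same number of the 9 there, 6, with 6.09% of all genes, and edgeR gave 6 at an FDR of at most 0.05, a threshold that 6.36% of all genes reached. Compared with the control group, edgeR called 0 of the 9 genes in the model group, where 0.0801% of 12486 genes were called. In that comparison 3 of the 9 had an unadjusted p under 0.05 in edgeR, as had 13.2% of all genes, and DESeq2 called 3, Gckr, Pfkfb1 and Ldha, where it called 2.05% of all genes. Gckr and Pfkfb1 had an edgeR FDR of at most 0.05 there, as had 0.601% of all genes. In whole liver, fewer cells of a type and less RNA per cell cannot be told apart.

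**Figure D1:**
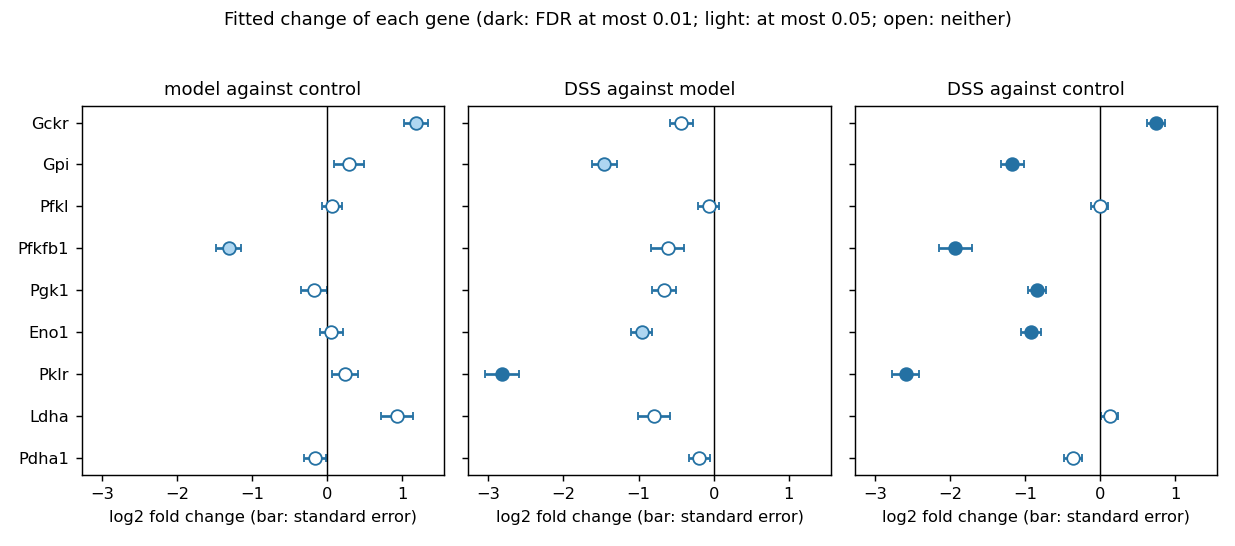
Log2 fold change of each of the 9 genes (horizontal axis) in the 3 comparisons, fitted with edgeR. Points are the fitted change and bars its standard error, dark points have an FDR of at most 0.01, light points one of at most 0.05 and open points neither. Pklr lies farthest to the left against both other groups, at -2.82 against the model group and -2.59 against the control group.

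The median log2FC of the 9 genes was 0.07 between the model and control groups, -0.66 between the DSS and model groups and -0.85 between the DSS and control groups, where the medians of all genes were -0.001, 0.0008 and -0.008. All 9 fitted changes were below 0 in the DSS group against the model group, as were 49.9% of those of all genes. In that comparison 7 of the 9 genes were lower in all 3 DSS rats than in all 3 model rats, which 7.85% of all genes showed. In 5 of the 9, Gpi, Pfkfb1, Pgk1, Eno1 and Pklr, the 3 DSS rats lay below the 6 other rats, a pattern of 3.56% of 12633 genes. The model rats lay above the other 6 in Gckr and Ldha (2.1% of genes), the control rats lay below the other 6 in the same pair (6.12%), and the control rats lay above the other 6 in Pfkfb1 (5.87%). Model and control rats did not overlap in 3 of the 9 genes (21.1% of all genes), and DSS and control rats did not in 7 (30.1%). The summed level of the 9 genes was 2420 to 2610 CPM in the control rats, 3036 to 3986 in the model rats and 1693 to 1857 in the DSS rats. Ldha weighs most in this sum, at 766 ± 10.1 CPM in control, 1457 ± 426 in model and 837 ± 50.4 in DSS livers. Between the model and control groups edgeR did not call Ldha (FDR 0.117), and 6 of the 9 fitted changes were above 0 and 3 below. The sum therefore does not describe the 9 genes as a set. Within the DSS group, replicate 1 was the lowest of the 9 rats in 6 of the 9 genes.

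**Figure D2:**
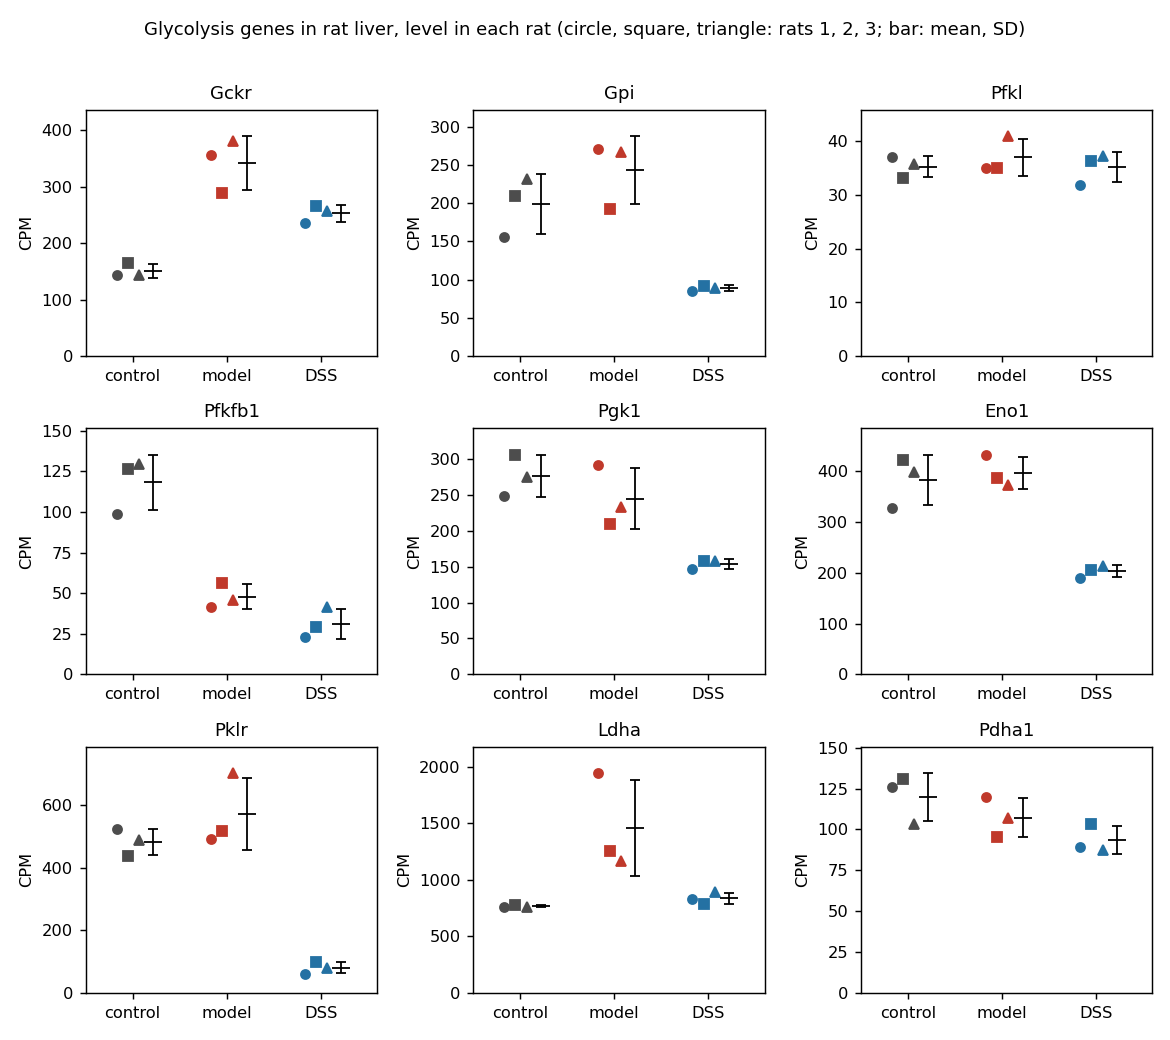
Level of each gene in each rat in CPM (vertical axes, from 0), by group, with circles, squares and triangles for rats 1, 2 and 3 of a group and the bar for mean ± SD. The DSS rats lie below the other 6 rats in Gpi, Pfkfb1, Pgk1, Eno1 and Pklr, the model rats lie above them in Gckr and Ldha, and the groups overlap in Pfkl and Pdha1.

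Pklr (ENSRNOG00000020420) encodes the liver and red cell pyruvate kinase, which makes pyruvate and ATP in the last step of glycolysis. It stood at 522, 438 and 489 CPM in the control rats and at 492, 517 and 703 CPM in the model rats. In the DSS rats it stood at 62.0, 98.6 and 80.9 CPM. The highest DSS rat was thus far below the lowest of the other 6 rats, while control and model rats overlapped. Mean Pklr fell to 80.5 ± 18.3 CPM with DSS, from 571 ± 115 CPM in model livers, at a log2FC of -2.82 (SE 0.229, edgeR FDR 0.00266), and Pklr had the 6th smallest p of all genes tested. Against the control group, at 483 ± 42.4 CPM, the log2FC was -2.59 (SE 0.178, edgeR FDR 0.000173), which corresponds to 6.01-fold lower levels. Between the model and control groups the difference was 0.24 (SE 0.175, edgeR FDR 0.602). Against the control group, Pklr was called with each rat left out in turn, with edgeR FDRs of 0.000334 to 0.00246. Against the model group the log2FC stayed between -2.99 and -2.64, but the edgeR FDR rose above 0.01 without model replicate 3 (0.0127) and without DSS replicate 1 (0.0172), 2 (0.0103) or 3 (0.0211).

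Gckr (ENSRNOG00000048874) encodes an inhibitory protein of the hepatocyte nucleus that restrains the phosphorylation of glucose. It stood at 144, 166 and 143 CPM in the control rats, at 355, 289 and 382 in the model rats and at 236, 266 and 258 in the DSS rats. The 3 groups did not overlap, with the control rats lowest and the model rats highest. The log2FC between the model and control groups was 1.18 (SE 0.158, edgeR FDR 0.0244), from 151 ± 12.9 to 342 ± 47.7 CPM, short of the threshold of 0.01. In the DSS group, at 253 ± 15.3 CPM, Gckr rose against the control group by a log2FC of 0.74 (SE 0.116, edgeR FDR 0.0079). The difference between the DSS and model groups was -0.43 (SE 0.152, edgeR FDR 0.515).

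Gpi (ENSRNOG00000023150) encodes glucose phosphate isomerase, which turns glucose phosphate into fructose phosphate and works in both directions. It stood at 156, 209 and 232 CPM in the control rats, at 272, 193 and 267 in the model rats and at 84.4, 91.9 and 89.6 in the DSS rats. The DSS rats were close together and below all others. Gpi fell in the DSS group against the control group by a log2FC of -1.17 (SE 0.153, edgeR FDR 0.0036). Against the model group the log2FC was -1.45 (SE 0.168), with an edgeR FDR of 0.0144. The model and control groups overlapped and differed by 0.29 (edgeR FDR 0.585).

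Pfkl and Pfkfb1 stand at the committing step. Pfkl (ENSRNOG00000001214) encodes the liver subunit of phosphofructokinase itself, and it was called in no comparison, at 35.3 ± 2.01 CPM in control livers, 37.0 ± 3.44 in model livers and 35.1 ± 2.84 in DSS livers. Its log2FCs lay between -0.07 and 0.07 with standard errors of 0.108 to 0.135, and their sign changed when single rats were left out. Pfkfb1 (ENSRNOG00000000165) encodes the liver form of the bifunctional enzyme that makes and removes the sugar bisphosphate that activates phosphofructokinase. It stood at 98.9, 127 and 130 CPM in the control rats, at 41.6, 56.3 and 45.8 in the model rats and at 23.0, 29.1 and 41.2 in the DSS rats. All control rats lay above all model rats, and all DSS rats lay below them, the highest DSS rat just under the lowest model rat. Pfkfb1 fell in the DSS group against the control group, from 118 ± 17.0 to 31.1 ± 9.28 CPM, a log2FC of -1.93 (SE 0.222, edgeR FDR 0.00376). Between the model and control groups the log2FC was -1.31 (SE 0.167, edgeR FDR 0.0241), and between the DSS and model groups it was -0.61 (SE 0.223, edgeR FDR 0.533). Of the 5 genes that fell in the DSS group against the control group, Pfkfb1 alone had control and model rats that did not overlap.

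Pgk1 and Eno1 belong to the lower steps that glycolysis and gluconeogenesis share. Pgk1 (ENSRNOG00000058249) encodes phosphoglycerate kinase, the first step of the pathway to make ATP, and stood at 248, 306 and 275 CPM in the control rats, at 292, 209 and 233 in the model rats and at 146, 158 and 157 in the DSS rats. Eno1 (ENSRNOG00000017895) encodes the enolase that makes phosphoenolpyruvate, and stood at 327, 423 and 398 CPM in the control rats, at 433, 386 and 373 in the model rats and at 190, 206 and 214 in the DSS rats. In both genes the DSS rats formed a narrow group below the other 6 rats, which overlapped. Against the control group, Pgk1 fell by a log2FC of -0.85 (SE 0.120, edgeR FDR 0.00526) and Eno1 by one of -0.92 (SE 0.132, edgeR FDR 0.00578). Against the model group the values were -0.66 for Pgk1 (SE 0.159, edgeR FDR 0.217) and -0.96 for Eno1 (SE 0.135, edgeR FDR 0.0329). Reads of enolase copies were few, since the Eno1-like genes LOC685431 and RGD1563294 had 0.836% to 1.26% and 1.49% to 2.69% of the counts of Eno1.

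The calls against the control group rested on all 6 rats. Of the 6 genes called there, 5 remained with control replicate 1 left out, 2 without DSS replicate 1 or 3, and 1 without control replicate 2 or 3 or DSS replicate 2. Pklr was among them each time and Gckr never. Over all genes, the 187 calls of this comparison also became fewer, 86 to 132, with a rat left out. The edgeR FDR of each of the 6 genes stayed at or below 0.0354 in these fits, and no direction changed.

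Ldha and Pdha1 mark the fates of pyruvate, lactate in the cytosol or acetyl-CoA in the mitochondrion. Ldha (ENSRNOG00000013009) encodes the lactate dehydrogenase subunit that predominates in liver, and stood at 762, 778 and 759 CPM in the control rats, at 1946, 1255 and 1170 in the model rats and at 830.0, 791 and 891 in the DSS rats. All model rats lay above the other 6, and model replicate 1, the rat that stood apart over all genes, was the highest. The DSS rats also lay above the control rats, by a narrow margin. The log2FC of Ldha was 0.93 between the model and control groups (SE 0.215, edgeR FDR 0.117, DESeq2 FDR 0.00253), and 0.64 without model replicate 1. Between the DSS and model groups it was -0.79 (SE 0.215, edgeR FDR 0.314), and between the DSS and control groups 0.12 (SE 0.114, edgeR FDR 0.549). An Ldha-like copy, RGD1562690, had 2.23% to 2.79% of the counts of Ldha.

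Pdha1 (ENSRNOG00000025383) encodes the alpha subunit of the enzyme that opens the pyruvate dehydrogenase reaction. It was at 120.0 ± 14.5 CPM in control livers, 107 ± 12.1 in model livers and 93.5 ± 8.72 in DSS livers, with overlapping groups and no call in any comparison. Of the other parts of the complex, edgeR called Dlat and Pdhb against the control group. Dlat, its acetyltransferase core, fell from 51.9 ± 10.3 CPM in the control group to 18.6 ± 1.20 in the DSS group, a log2FC of -1.49 (SE 0.150, edgeR FDR 0.00106), and was -1.16 against the model group (edgeR FDR 0.0308). Pdhb, the partner subunit of Pdha1, fell from 176 ± 12.1 to 85.8 ± 8.86 CPM against the control group (log2FC -1.04, SE 0.119, edgeR FDR 0.00195). Pdhx, which anchors a further component, had a log2FC of -0.53 against the control group, which edgeR did not call (FDR 0.0191) and DESeq2 did (FDR 0.0034). Of the kinases that switch the complex off, Pdk1 fell from 74.8 ± 3.79 to 34.6 ± 0.607 CPM against the control group (log2FC -1.11, SE 0.0938, edgeR FDR 0.000467). Pdk4, the kinase of the fasted state, stood at 37.7 ± 7.27 CPM in control livers, 58.5 ± 2.81 in model livers and 66.8 ± 20.4 in DSS livers. Its log2FC was 0.63 between the model and control groups (edgeR FDR 0.13, DESeq2 FDR 0.0361), whose rats did not overlap, and 0.82 between the DSS and control groups (edgeR FDR 0.0947), where DESeq2 called it higher (FDR 0.0091). In all, 3 of the 11 genes of the complex and its kinases were called lower against the control group and 0 higher by edgeR, while DESeq2 called 5, of which Pdk4 was higher. Their median log2FC was -0.53.

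Within paralogue families, shares of counts do not depend on library scaling. Pklr made up 97.7%, 97.9% and 97.7% of the Pklr and Pkm counts in the control rats, 98.0%, 97.8% and 99.2% in the model rats and 87.2%, 90.5% and 88.5% in the DSS rats. All 3 DSS rats lay below the other 6, with a mean share of 88.7% ± 1.65, and Pkm itself, the muscle-type pyruvate kinase, was not called, at 11.0 ± 1.47, 9.30 ± 3.07 and 9.98 ± 0.778 CPM. Pfkfb1 made up 91.6% ± 1.36 of the counts of Pfkfb1 to Pfkfb4 in control livers, 81.9% ± 5.47 in model livers and 68.2% ± 9.27 in DSS livers, and control rats did not overlap either fructose group. Pfkl (87.5% to 88.4% of phosphofructokinase counts on average), Ldha (99.7% to 99.8%) and Eno1 (98.9% to 99.6%) kept their place as the main isoform in every group. Across all 33 tests of shares and ratios the smallest exact permutation p was 0.1, which is 0.254 after Benjamini-Hochberg adjustment, so none could pass.

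Ratios of a glycolytic gene to the gene that opposes it were also taken in each rat. Pck1 encodes phosphoenolpyruvate carboxykinase, which makes the substrate that pyruvate kinase consumes. The log2 ratio of Pklr to Pck1 counts was -0.48, -0.69 and -1.03 in the control rats, -2.14, -1.74 and 0.20 in the model rats and -5.79, -3.68 and -5.50 in the DSS rats. The DSS rats lay below all others by more than 1 log2 unit, and the model rats were widely spread. Pck1 alone stood at 811 ± 163, 1501 ± 802 and 2790 ± 1323 CPM. All DSS rats lay above all control rats in Pck1, and its log2FC between these groups was 1.78, which edgeR did not call (FDR 0.0613) and DESeq2 did (FDR 8.38e-07). The log2 ratio of Pdha1 to Pdk4 was 1.68 ± 0.265 in control livers, 0.87 ± 0.220 in model livers and 0.53 ± 0.445 in DSS livers, with the control rats above both others. The ratios of Pfkl to Fbp1, the fructose bisphosphatase, and of Gpi to G6pc, the glucose phosphatase that ends gluconeogenesis, overlapped in all comparisons.

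**Figure D3:**
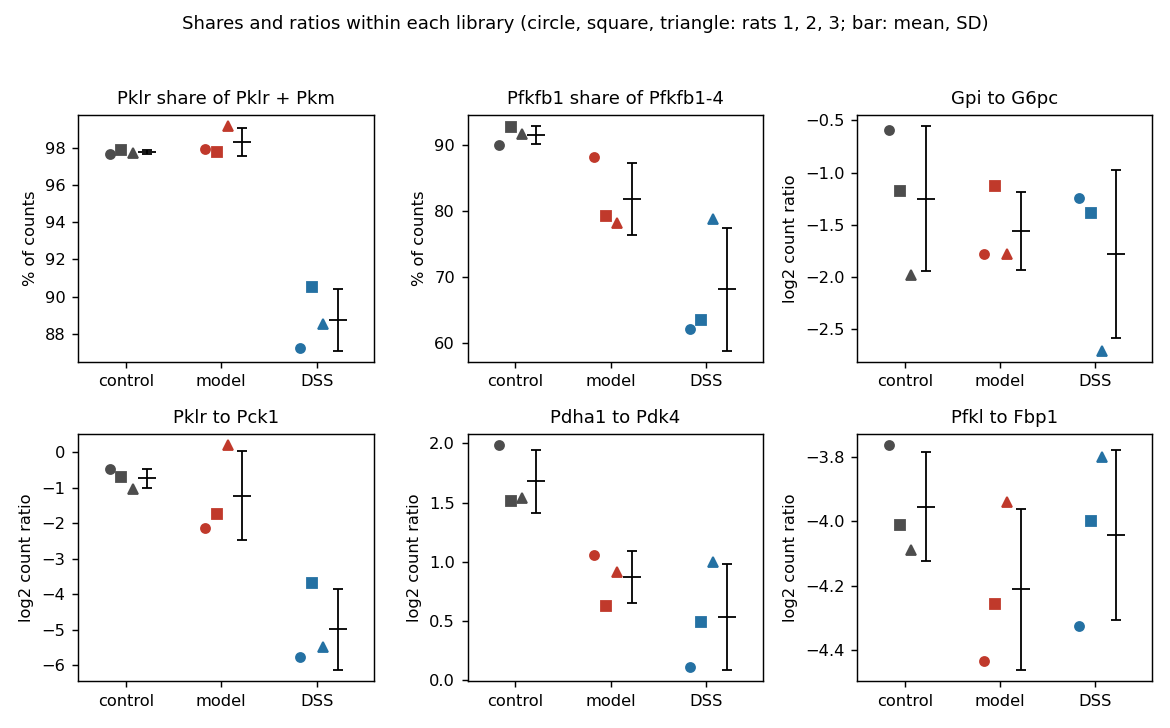
Shares of counts in percent and log2 ratios of counts (vertical axes, which do not start at 0) in each rat, by group, with the bar for mean ± SD. The DSS rats lie below the other 6 in the Pklr share and in the ratio of Pklr to Pck1, and the groups overlap in the ratios of Gpi to G6pc and of Pfkl to Fbp1.

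Of the other enzymes of glycolysis, 12 were tested against the control group. None was called by edgeR (3 had an unadjusted p under 0.05, and DESeq2 called 2), and 2 had an FDR of at most 0.05, among them Gapdh (log2FC -0.67, edgeR FDR 0.0425). Gapdh shares sequence with many copies, and 1 of them, LOC108351137, held 10.1% to 30.3% of the counts of Gapdh and was itself lower in the DSS group than in the control group (log2FC -1.59, edgeR FDR 0.00363). The median log2FC of these enzymes was -0.28. Of 7 tested genes of glucose entry and phosphorylation edgeR and DESeq2 called none against the control group (3 at an unadjusted edgeR p under 0.05), and Slc2a2, the glucose transporter of hepatocytes, stood at 521 ± 37.6, 521 ± 26.1 and 394 ± 48.2 CPM. Of 6 tested gluconeogenic genes edgeR called none there (2 at an unadjusted p under 0.05) and DESeq2 called 1, Pck1, and their median was 0.04. The same comparison gave no call by either tool among 3 other genes around the bifunctional enzyme (median 0.17, 2 at an unadjusted edgeR p under 0.05) or among 8 genes of lactate and pyruvate handling (median 0.17, 3 at an unadjusted edgeR p under 0.05). Unadjusted p-values of this size were common in this comparison. That of the gluconeogenic gene G6pc3, an edgeR p of 0.0489, ranked 3045 among the 12633 genes tested.

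Genes outside glycolysis that are known to answer to carbohydrate, many of them in lipid synthesis, were tested beside it. Of 13, 2 were called lower and 0 higher against the model group, with a median log2FC of -1.37, and 6 were called lower and 0 higher against the control group, with a median of -2.24. DESeq2 called 9 and 10 of them in these comparisons. Those called against the control group were Fasn, the fatty acid synthase (-4.02, edgeR FDR 0.00183), Acly, which supplies it with acetyl-CoA (-2.89, edgeR FDR 0.00811), Tkfc, the triokinase of fructose breakdown (-2.55, edgeR FDR 2.68e-05), Acaca, the acetyl-CoA carboxylase (-2.32, edgeR FDR 3.9e-05), Tkt, the transketolase (-1.46, edgeR FDR 0.00183), and Gpd1, the glycerol phosphate dehydrogenase (-0.90, edgeR FDR 0.00295). Those called against the model group were Tkfc (-2.39, edgeR FDR 0.00163) and Me1, the malic enzyme (-2.08, edgeR FDR 0.0019). Thrsp and Khk, the ketohexokinase that opens fructose breakdown, had an FDR of at most 0.05 against the control group, with log2FCs of -2.82 and -0.75. Txnip, by contrast, a carbohydrate-responsive gene of redox control, stood at 58.8 ± 6.92, 88.0 ± 36.4 and 62.5 ± 3.99 CPM and was not called. Between the model and control groups none of these genes was called by edgeR, 1 had an unadjusted p under 0.05, and DESeq2 called 1.

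Of 17 regulators, edgeR called 1 against the control group, and DESeq2 called 3. Srebf1, the lipogenic factor induced by insulin, fell from 677 ± 159 CPM in the control group to 210.2 ± 36.9 in the DSS group (log2FC -1.69, SE 0.198, edgeR FDR 0.00244). At an FDR of at most 0.05, Mlx, the partner of ChREBP, and Klf10 were lower (-0.50 and -0.74) and Usf2 and Thra higher (0.54 and 0.60) against the control group. Mlxipl, the gene of ChREBP, was not matched by symbol and has no value here. Targets of the hypoxia response, a set that overlaps glycolysis in other tissues, gave 1 edgeR call among 13, Pdk1, and 3 DESeq2 calls, with a median log2FC of -0.23 against the control group. Egln3 (-2.01), P4ha1 (-0.52) and Kdm3a (0.75) had an FDR of at most 0.05 there, in different directions. The level of Egln3 was low, with 26 to 37 counts in the control rats and 5 to 13 in the DSS rats.

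**Figure D4:**
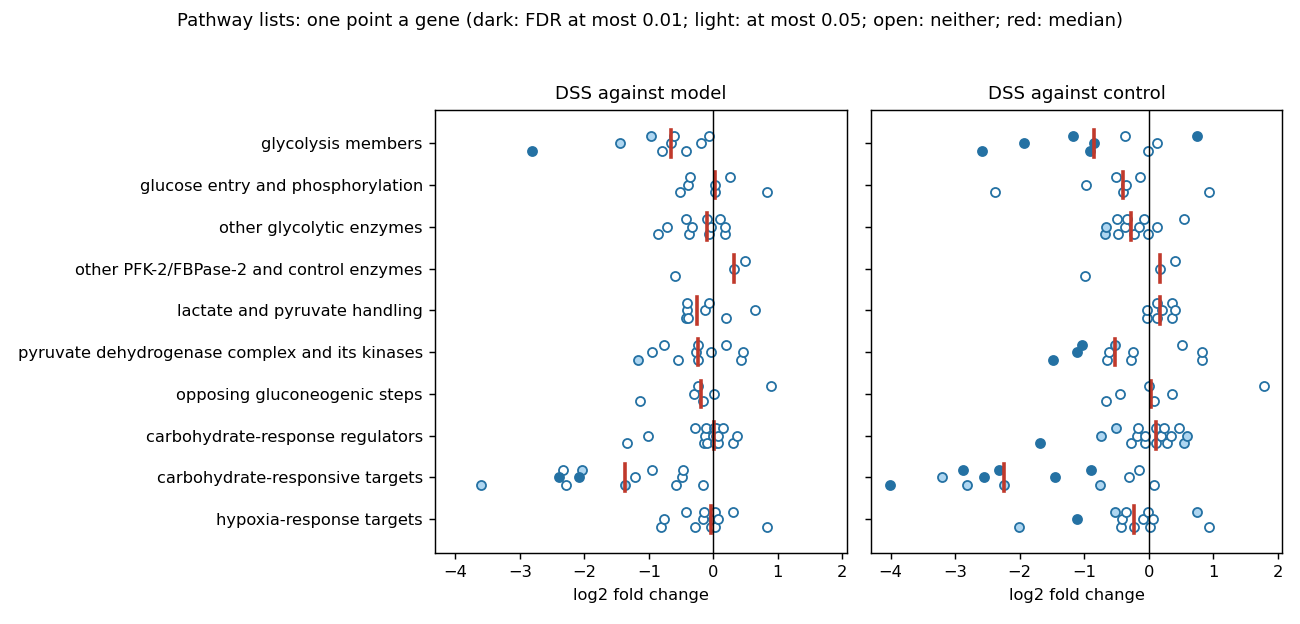
Log2 fold change of each tested gene (horizontal axis, 1 point a gene) by pathway list, for the DSS group against the model group and against the control group. Dark points have an FDR of at most 0.01, light points one of at most 0.05 and open points neither, and red lines mark medians. The lowest medians in both panels are those of the carbohydrate-responsive targets, at -1.37 and -2.24.

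The genes whose profile over the 9 livers was most like that of Pklr were sought among 10093 genes, by the mean absolute difference of log2 CPM after each gene had been scaled to mean 0 and SD 1. The nearest were Tkfc (difference 0.169 SD), Tm6sf2, a gene of hepatic lipid export (0.171), Scd, the stearoyl-CoA desaturase (0.172), Fasn (0.192) and Hcn3 (0.204). Scd stood at 11312 ± 2616 CPM in control livers, 8646 ± 943 in model livers and 125 ± 80.1 in DSS livers, with no overlap between the DSS rats and the others. Tm6sf2 stood at 47.9 ± 5.04, 49.4 ± 2.93 and 22.1 ± 0.0646 CPM. Among the 9 genes of glycolysis, Gpi ranked 8, Eno1 11 and Pgk1 58 in likeness to Pklr when members were included, and Gckr ranked 6384 of 10101. These ranks describe profiles that share libraries and a low DSS group.

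Hcn3, the gene of a pacemaker channel, is the neighbour of Pklr in the mouse annotation (GRCm38.p6), where the gene models overlap. It stood at 13.6 ± 1.30 CPM in control livers, 18.6 ± 10.1 in model livers and 1.59 ± 0.926 in DSS livers, and its log2FC against the control group was -3.10 (edgeR FDR 0.00195). Since counting ignored strand, reads of overlapping genes cannot be told apart, and the share of Pklr reads in the value of Hcn3 was not tested. Fdps, the neighbour on the other side, stood at 513, 297 and 341 CPM in the control, model and DSS groups. Among the genes nearest to the mean profile of the 9 were Mrto4, Mtmr7, Hcn3 and Epha2, with differences of 0.187 to 0.226 SD.

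**Figure D5:**
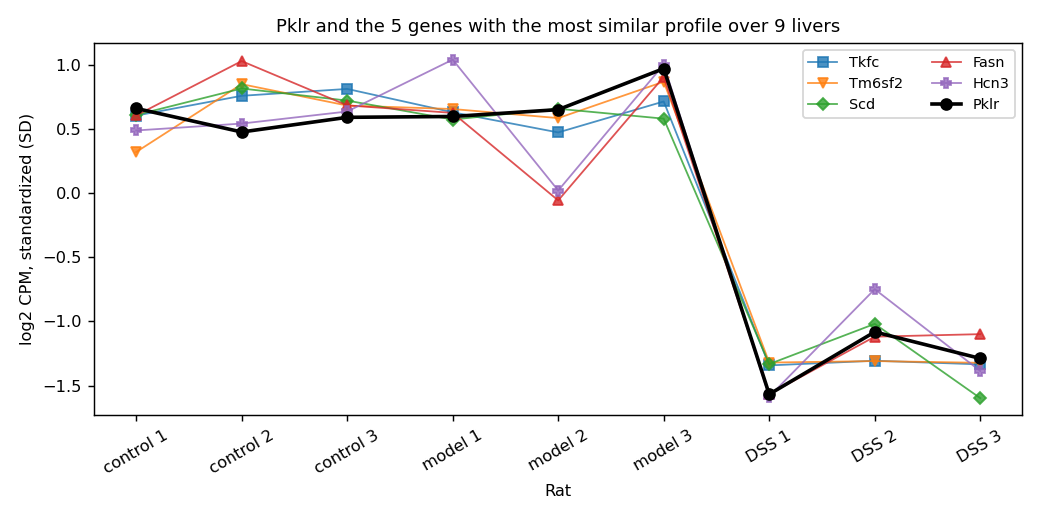
Log2 CPM of Pklr (black) and of the 5 genes most like it, each scaled to mean 0 and SD 1 over the 9 livers (vertical axis, in SD), in each rat (horizontal axis). All 6 genes lie below 0 in the 3 DSS rats, and Fasn and Hcn3 dip towards 0 in model replicate 2.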

How the data were processed

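Liver RNA-seq of 9 rats was used, 3 per group, with groups taken from the sample labels. The authors enriched mRNA with oligo(dT) beads, aligned the reads with HISAT2 to Rnor_6.0 (per the labels) and counted reads over exons, ignoring strand, with HTSeq 0.6.1. What the authors deposited are raw, unnormalized whole-number counts for each gene. Overlapping genes and near-identical copies can therefore share or lose reads. The authors' table of assembled transcripts states no unit and was left out.

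Each comparison was fitted on its 6 libraries with edgeR 4.0.16 (R 4.3.3), with filterByExpr, TMM, robust glmQLFit and the two-sided glmQLFTest. A call needed |log2 fold change| of 0.5 or more and a Benjamini-Hochberg FDR no higher than 0.01, as in the study. Standard errors were derived from the quasi-likelihood F. CPM were scaled to TMM sizes over all 9 libraries (factors 0.871 to 1.14). Total counts per library ranged from 14345819 to 26837227. Shares and ratios were compared with exact two-sided permutation tests of 3 rats against 3. The labels do not say more of how the samples of a group were raised, so p-values measure the spread between these samples. The edgeR step was tested on simulated data.

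The 9 genes and the lists of pathway and marker genes were chosen with earlier results of these data known. Named are the 9 genes, the pathway genes past the same fold change at an FDR of 0.05 in any comparison, the paralogues, antagonists and regulators fixed beside them, and the 5 genes most like Pklr or the mean of the 9. Slc2a2, the copies and the neighbours were added after their values were seen. Values of a few listed genes are left out. The symbols Mlxipl, Pgd, Hkdc1, Slc2a3, Ero1l, Pcx, G6pc1, Pecam1, Cd79a, Hba1, Ckm, Acta1, Myh4 and Mb were among those not matched. Rat genome sequence was not used here, so no coordinates or promoters are given, and the planned search for promoter motifs was not run.

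Fits were repeated with other scalings (median-ratio size factors, plain library size), other filters (none, or a minimum of 10 counts per library), DESeq2 1.42.0, a joint fit of the 9 libraries, a replicate block, a looser FDR of 0.05, no fold threshold, and leaving out single rats.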

Additional observations from a re-analysis of the deposited data

How the results depend on the processing

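Of the 9 genes, 0 were called between the model and control groups by edgeR with TMM (3 at an unadjusted p under 0.05), and the count was 2 with no filter on low counts, 3 with DESeq2, 1 with all 9 libraries in 1 fit, 2 at an FDR of 0.05 and 0 with any rat left out. Between the DSS and model groups it was 1, against 2, 3, 2 and 3 under the same alternatives, and 0 to 2 with each rat left out. Between the DSS and control groups it was 6, and 1 to 5 with each rat left out. There Gckr passed the fold threshold but not the FDR of 0.01 with library size alone (log2 fold change 0.61, edgeR FDR 0.0132) and with all 9 libraries in 1 fit (0.75, edgeR FDR 0.0165). Over all genes, the calls between model and control groups, 10, became 71, 256, 25 and 75 under no filter, DESeq2, all libraries and an FDR of 0.05, and 0 to 10 with a rat left out. Between the DSS and model groups, 17 became 38 with no filter, 147 with DESeq2, 57 at an FDR of 0.05, 11 with library size alone and 2 to 12 with a rat left out. Between the DSS and control groups, 187 became 489 with no filter, 769 with DESeq2, 113 with all libraries, 804 at an FDR of 0.05 and 86 to 132 with a rat left out. The cause of these differences between tools and filters was not tested. Library size alone moved the median of all genes by -0.146 (model against control) and -0.136 (DSS against control) on the log2 scale and split the calls of the last comparison into 181 lower and 57 higher, where TMM gave 104 and 83.

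Signs changed in genes that were not called. With library size alone, the log2 fold change between the model and control groups became -0.077 in Pfkl and -0.090 in Eno1, and that of Ldha between the DSS and control groups became -0.013. With each rat left out, Eno1 ranged from -0.048 to 0.131 and Pfkl from -0.0086 to 0.106 between the model and control groups, Pfkl from -0.11 to 0.016 between the DSS and model groups and from -0.047 to 0.061 between the DSS and control groups.

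Rats that share a replicate number did not deviate together (correlations of -0.23 to -0.02 over genes), so the numbers were not used to pair the rats in the main fits. With 3 rats in each group, a weak pairing could be missed in this way. With the replicate block, 3 of the 9 genes were called between the DSS and control groups, and the counts over all genes were 0, 7 and 104. The 9 genes had at least 423 counts in every library, and depth was not tested as a limit on their calls.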
